A study of Mus musculus with 12 samples.

Results

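Zkscan3, Tfeb and 8 genes of autophagy and the lysosome were followed across all 4 groups of a mouse heart experiment. The 10 genes are Zkscan3, Tfeb, Ulk1, Becn1, Map1lc3b, Gabarapl1, Sqstm1, Lamp1, Lamp2 and Ctsd. All 10 were in the table of 22794 genes and all 10 were among the 14412 that passed the filter on low counts. They were taken as a set because Zkscan3 had a lower mean in both JV101 groups than in the saline group of the same surgery. Those measured values are given here as a description, with no test. The other 9 genes entered by their roles.

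The experiment is RNA-seq of cardiomyocytes isolated from the hearts of C57BL6 mice, genotype WT, killed 16 weeks after surgery. NX JV101 libraries come from mice with 5/6 nephrectomy, which leaves a small remnant of kidney, that were injected with JV101. NX saline libraries come from mice with the same nephrectomy injected with saline. Sham JV101 and sham saline libraries come from sham-operated mice given either injection. Each group has 3 libraries, 12 in all. The study's title speaks of telomere recapping by gene therapy, and the labels say neither what JV101 carries nor when it was given. They number the replicates without saying whether each is a separate animal, so a p-value here covers the spread among libraries, which may be technical.

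Autophagy encloses damaged proteins and organelles in a double membrane and delivers them to the lysosome, and the long-lived cardiomyocyte depends on it for turnover of mitochondria and contractile protein. TFEB is a basic helix-loop-helix factor that leaves the lysosome surface for the nucleus when mTORC1 is inactive and switches on lysosomal and autophagy genes through sites built around the letters CACGTG. ZKSCAN3, a zinc finger protein with SCAN and KRAB domains, was described in human cell lines as a repressor of an overlapping gene set. Both proteins are controlled largely by where they sit in the cell, which RNA levels do not show.

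The promoters shown here are those of the 2 members whose start region holds the CACGTG core of TFEB sites. Promoter sequences (250 bases before to 50 after a start) came from RefSeq on GRCm38.p6, an older assembly than the GRCm39 of the counts, and 8 of the 10 members had an entry, with 10 starts among them. Zkscan3 and Becn1 are not among the 8. Lamp1 held 4 cores, which begin 61, 45, 28 and 15 bases before its start, and Ctsd held 2, which begin 245 and 98 bases before its start. Capitals mark each core, on the strand of the gene, for chr8:13159078-13159160 (plus strand), chr7:142387898-142387947 (minus strand) and chr7:142388045-142388077 (minus strand).
Lamp1: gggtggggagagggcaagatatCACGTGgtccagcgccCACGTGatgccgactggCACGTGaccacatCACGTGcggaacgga
Ctsd, near the start: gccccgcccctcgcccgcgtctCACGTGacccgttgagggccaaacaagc
Ctsd, farther upstream: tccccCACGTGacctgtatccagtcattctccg
The Ctsd core near the start lies within TCACGTGA, a longer palindrome around the core. The core CACGTG, which reads the same on both strands, was in 7.15% of 32851 promoters, TCACGTGA in 0.974% and the full palindrome GTCACGTGAC in 0.326%. The promoters of Tfeb, Ulk1, Map1lc3b, Gabarapl1, Sqstm1 and Lamp2 did not hold CACGTG in this window. A match of letters is a description of the window and not a binding site.

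The libraries held 26.4 to 33.8 M counts each. Between 36.7% and 69.0% of these fell on mitochondrially encoded protein genes, highest in sham saline replicate 2 (69.0%), NX saline replicate 3 (66.5%) and sham JV101 replicate 2 (58.4%). Levels are given as CPM, a gene's counts relative to all counts of its library after TMM scaling. In edgeR's quasi-likelihood test over 14412 genes, adjusted by Benjamini-Hochberg with 0.05 as the threshold, 0% of genes passed in any of the 7 comparisons, members included. At an unadjusted p under 0.05, 345 genes (2.39%) were below in NX JV101 against NX saline, 245 (1.70%) in sham JV101 against sham saline, 299 (2.07%) in NX JV101 against sham JV101 and 524 (3.64%) in NX saline against sham saline. The same count was 256 (1.78%) for the interaction of nephrectomy and JV101, 329 (2.28%) for JV101 averaged over both surgeries and 629 (4.36%) for nephrectomy averaged over both injections. DESeq2 called 8 genes in NX JV101 against NX saline, 1 in NX saline against sham saline, 7 for JV101 averaged and 1 for nephrectomy averaged, and 0 in the other 3, with 0 genes of the autophagy-lysosome lists among them.

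Cardiomyocyte transcripts (Myh6, Tnnt2 and the rest of 12 markers) summed to 37731 to 72458 CPM. The sums for markers of other cells were above 0 in every library. The 12 macrophage markers summed to 311 to 843 CPM in NX JV101, 398 to 563 in NX saline, 170 to 775 in sham JV101 and 224 to 574 in sham saline, and these ranges overlap. The 10 mesothelial markers, none at 0 in a group, summed to 36.5 to 45.4 CPM in NX JV101 against 60.9 to 127 in NX saline, and to 42.3 to 59.9 in sham JV101 against 69.2 to 87.8 in sham saline, without overlap. Single markers overlapped, and Wt1 did not follow the sums after sham surgery. It had 9.55, 7.46 and 1.89 CPM in sham JV101 against 7.29, 5.43 and 4.80 in sham saline. NX JV101 and NX saline were also separate in the sums of the 8 atrial cardiomyocyte markers (1045 to 1698 CPM in NX JV101 against 332 to 650 in NX saline). Nppa was the largest part of these sums, and Bmp10 overlapped between the groups. Myot overlapped too and did not follow the sums, with 48.0, 76.0 and 67.2 CPM in NX JV101 against 95.5, 95.3 and 40.9 in NX saline. The sums of the 10 lymphocyte markers were separate too (1.40 to 3.46 CPM in NX JV101 against 3.49 to 16.0 in NX saline). Of these, Cd4 went the other way (0.341, 0.801 and 0.524 CPM in NX JV101 against 0.317, 0.172 and 0.271 in NX saline). The 8 neutrophil markers summed to 9.37 to 25.9 CPM in NX saline against 5.01 to 6.18 in sham saline, where 1 marker was at 0. S100a8 and S100a9 were separate between these groups, and Cxcr2, Retnlg, Mmp8 and Ngp overlapped. Csf3r overlapped too, with 5.10, 0.747 and 3.47 CPM in NX saline against 3.76, 4.33 and 1.67 in sham saline. The 7 adipocyte markers summed to 1.57 to 14.6 CPM in NX JV101, with 1 at 0, against 0.0898 to 0.793 in sham JV101, with 2 at 0. The part of these markers in the results that follow was not tested. In bulk RNA, fewer cells of a type and less RNA per cell cannot be told apart.

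Zkscan3 was set apart by the sham saline libraries. It had 16.0, 16.2 and 19.0 CPM in NX JV101, 18.2, 22.1 and 19.6 CPM in NX saline, 18.9, 23.6 and 19.8 CPM in sham JV101, and 27.0, 33.5 and 29.2 CPM in sham saline. All 3 sham saline libraries lay above the other 9, which overlapped one another across their 3 groups. Of all genes tested, 87 (0.604%) had their sham saline libraries above all others in this way, and 37 had them below. Sham saline above sham JV101 is part of what chose Zkscan3, so nothing is read from these counts for it. Becn1 was the 1 gene below among 186 tested genes of autophagy and the lysosome.

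The choice of the set rests on the comparisons of JV101 with saline, so these are description. After sham surgery Zkscan3 averaged 20.7 ± 2.50 CPM in sham JV101 and 29.9 ± 3.33 CPM in sham saline (SD, n = 3 each), a log2 fold change of −0.53, and the groups did not overlap. That was so for 2.07% of all genes in the lower direction, and nothing is read from it for a gene chosen on this contrast. After nephrectomy it averaged 17.1 ± 1.71 CPM in NX JV101 and 20.0 ± 1.95 CPM in NX saline, a log2 fold change of −0.23, and the groups overlapped. On the deposited FPKM, which are per total counts with the mitochondrial ones included, this last value turned to 0.088 (log2 of FPKM plus 1) while the median of all genes stood at 0.21. The JV101 and saline libraries were thus separate for Zkscan3 after sham surgery and mixed after nephrectomy.

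Nephrectomy was not used to choose Zkscan3, although the same libraries of all 4 groups were. In mice given saline, Zkscan3 averaged 20.0 ± 1.95 CPM in NX saline and 29.9 ± 3.33 CPM in sham saline, a log2 fold change of −0.58 (SE 0.14, 95% interval −0.90 to −0.26). All 3 NX saline libraries were below all 3 sham saline libraries, as 5.92% of genes were. The difference did not pass (edgeR adjusted p = 0.994, 0.00184 before adjustment, the 14th smallest of 14412). Sham saline above sham JV101 helped choose Zkscan3, which favours a low value here. NX saline above NX JV101 helped choose it too, which favours a value nearer to 0. The interval, the unadjusted p and its rank are therefore a description. With JV101, Zkscan3 averaged 17.1 ± 1.71 CPM in NX JV101 and 20.7 ± 2.50 CPM in sham JV101 (log2 fold change −0.28, SE 0.14, edgeR adjusted p = 0.999), and the groups overlapped. Both of these groups entered the choice of Zkscan3, so these values are a description as well. Averaged over both injections the nephrectomy value was −0.43 (SE 0.10, edgeR adjusted p = 0.860), and it includes the same sham saline libraries.

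**Figure D1:**
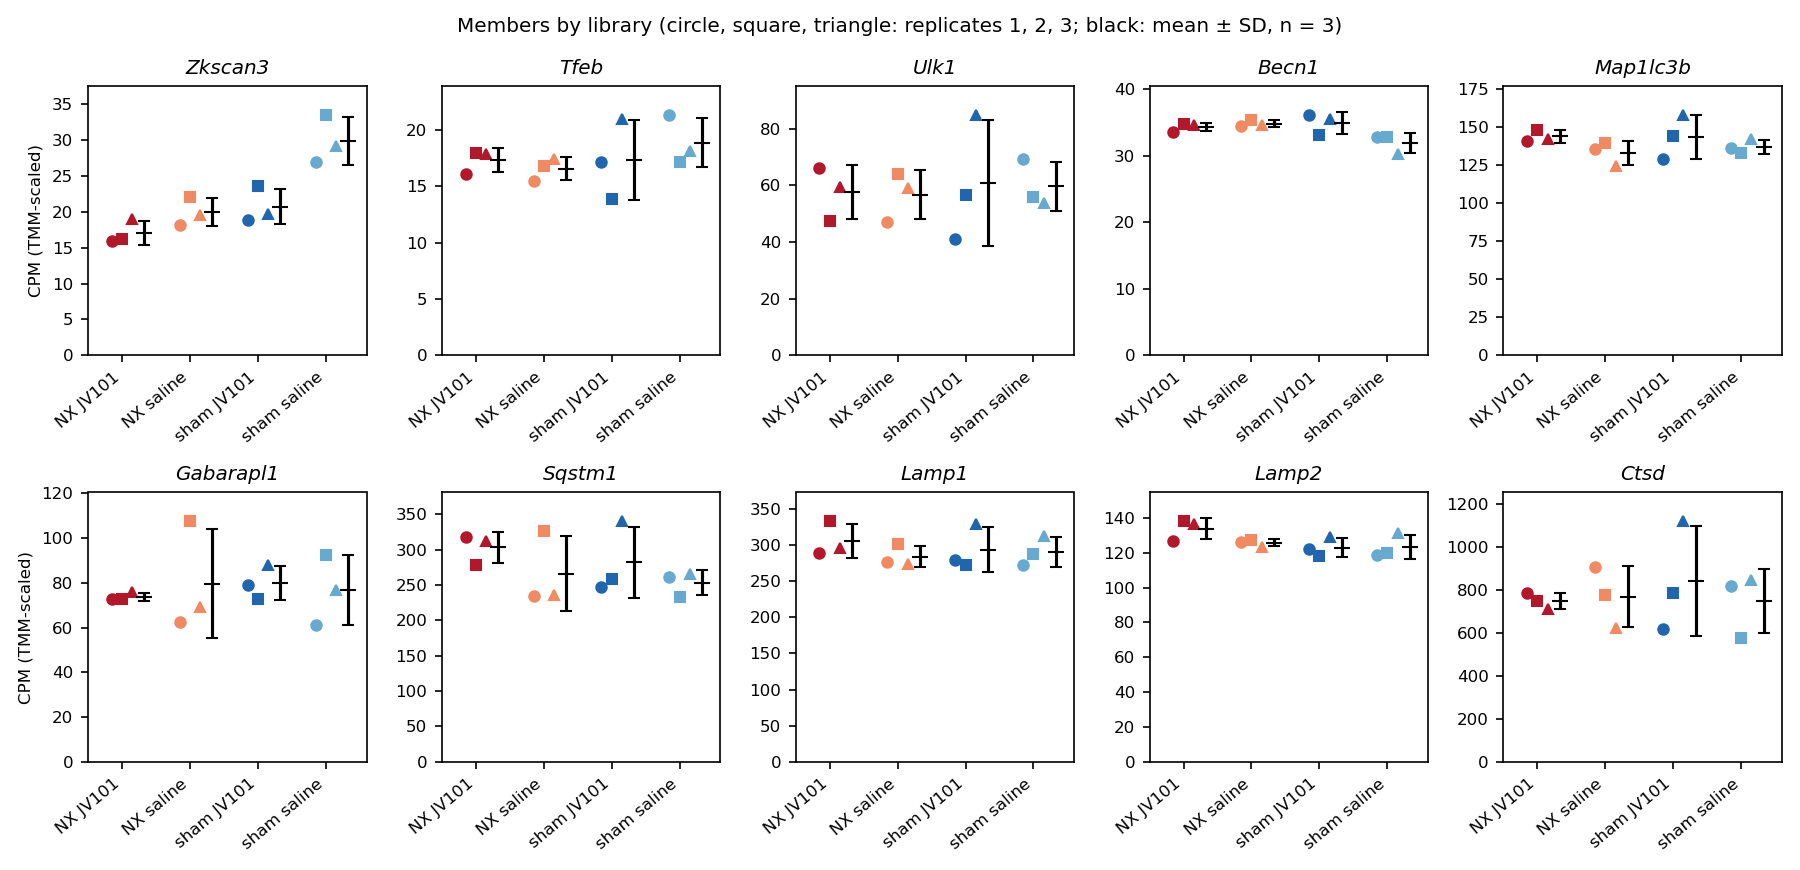
CPM of each of the 10 genes (y axis, from 0) in the 3 libraries of NX JV101, NX saline, sham JV101 and sham saline (x axis); black marks are the mean and SD of 3 libraries. Zkscan3 in sham saline lies at 27.0 to 33.5 CPM, above the other 9 libraries at 16.0 to 23.6 CPM, and the other 9 genes show groups that mostly overlap.

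Sham saline replicate 2 had both the highest Zkscan3 level and the highest mitochondrial share, and sham JV101 replicate 2 was the highest of its group in both. NX saline replicate 3, with 66.5% mitochondrial counts, was between the other NX saline libraries in Zkscan3. Without the 3 libraries of highest mitochondrial share, a fit added after the data were seen, Zkscan3 was at −0.55 in sham JV101 against sham saline, −0.46 in NX saline against sham saline, −0.27 in NX JV101 against NX saline, with −0.18 in NX JV101 against sham JV101. The last of these is over 1.5 times smaller than with all libraries, as it also was without sham JV101 replicate 2 alone (−0.18). In NX JV101 against NX saline, Zkscan3 was at −0.15 without NX saline replicate 2, also over 1.5 times smaller. The sham JV101 value lay between −0.63 and −0.43 when each library was left out in turn.

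Zkscan3 had 362 to 1055 counts per library. Its coefficient of variation over the 12 libraries was 24.8%, which includes the difference between groups that chose it, and those of the other 9 members were 4.76% (Becn1) to 19.9% (Ulk1). Zkscan4, its close relative that RefSeq also places on chromosome 13, had 6 to 21 counts per library and averaged 0.344 ± 0.0746 CPM in NX JV101, 0.365 ± 0.136 in NX saline, 0.446 ± 0.167 in sham JV101 and 0.348 ± 0.163 in sham saline. How the counting divided reads between related zinc finger genes is not given in the sources used here. Of 19 tested genes with SCAN or KRAB domains of the Zkscan and Zscan families, Zkscan3 included, 8 were positive and 11 negative for JV101 averaged, with a median of −0.021. Zscan20, another family member, had 5.79, 3.75 and 4.26 CPM in NX JV101 and 4.60, 8.59 and 9.16 CPM in sham JV101, with a log2 fold change of −0.70 (SE 0.28, edgeR adjusted p = 0.999).

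Tfeb, the activator, did not mirror Zkscan3. Tfeb had 16.1, 18.0 and 17.9 CPM in NX JV101, 15.5, 16.8 and 17.4 in NX saline, 17.1, 13.9 and 21.0 in sham JV101, and 21.4, 17.2 and 18.1 in sham saline. All groups overlapped one another. Its log2 fold change was 0.065 in NX JV101 against NX saline (95% interval −0.28 to 0.41), −0.12 in sham JV101 against sham saline (−0.47 to 0.23), −0.19 in NX saline against sham saline (−0.54 to 0.16) and −0.0024 in NX JV101 against sham JV101 (−0.35 to 0.35). None of these passed (edgeR adjusted p of 0.994 for NX saline against sham saline and 1.00 for the other 3), and the intervals allow differences in either direction. Tfe3, the related factor that acts on the same sites, averaged 10.9 ± 1.496 CPM in NX JV101, 11.96 ± 0.852 in NX saline, 11.7 ± 2.76 in sham JV101 and 9.99 ± 0.795 in sham saline.

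The ratio of Zkscan3 to Tfeb, taken per length from the deposited FPKM, was 2.30, 2.08 and 2.46 in NX JV101, 2.73, 3.03 and 2.60 in NX saline, 2.55, 3.92 and 2.18 in sham JV101, and 2.93, 4.51 and 3.73 in sham saline. Per length, Zkscan3 RNA exceeded Tfeb RNA in all 12 libraries. The lengths implied by counts and FPKM were 3260 bases for Zkscan3 and 7548 for Tfeb. By counts, Tfeb was above Zkscan3 in NX JV101 replicates 1 (473 against 469) and 2 (764 against 686). It was also above in sham JV101 replicate 3 (701 against 660). The NX JV101 ratios were below all NX saline and all sham saline ratios and overlapped those of sham JV101. Since Zkscan3 chose the set, this ratio is a description as well.

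Ulk1 encodes the kinase that starts autophagosome formation, and Becn1 the scaffold of the lipid kinase complex that acts next. Ulk1 had 66.2, 47.4 and 59.5 CPM in NX JV101, 47.1, 64.0 and 59.1 in NX saline, 40.9, 56.7 and 84.9 in sham JV101, and 69.4, 55.8 and 53.6 in sham saline. The sham JV101 libraries alone spanned the whole range of the other groups. Becn1 had 33.6, 34.7 and 34.7 CPM in NX JV101, 34.4, 35.4 and 34.6 in NX saline, 36.1, 33.03 and 35.5 in sham JV101, and 32.8, 32.7 and 30.2 in sham saline. Becn1 was therefore lowest in the same 3 libraries in which Zkscan3 was highest.

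The size of the Becn1 difference was small. It averaged 34.9 ± 1.64 CPM in sham JV101 and 31.9 ± 1.47 CPM in sham saline (log2 fold change 0.13, SE 0.10, edgeR adjusted p = 1.00), with no overlap, as for 1.76% of genes in the higher direction. It averaged 34.8 ± 0.501 CPM in NX saline and 31.9 ± 1.47 CPM in sham saline (0.13, SE 0.10, edgeR adjusted p = 0.994), with no overlap, as for 4.90% of genes. Both comparisons share the sham saline libraries. Becn1 stood at −0.020 in NX JV101 against NX saline, and at −0.024 in NX JV101 against sham JV101.

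Map1lc3b and Gabarapl1 encode ATG8 proteins, which are bound to lipid on the growing autophagosome. Map1lc3b had 141, 148 and 142 CPM in NX JV101, 135, 140 and 124 in NX saline, 129, 144 and 158 in sham JV101, and 136, 133 and 142 in sham saline. NX JV101 was above NX saline without overlap, as were 4.52% of all genes, with a log2 fold change of 0.11 (SE 0.12, edgeR adjusted p = 1.00). In the lower direction 3.69% of genes separated NX JV101 from NX saline, and none of the 10 members did. NX JV101 and sham JV101, which 2.69% of genes separated with NX JV101 higher and 2.42% with it lower, overlapped in all 10 members. Gabarapl1 ranged from 61.0 to 108 CPM, and its highest library was NX saline replicate 2, with log2 fold changes of −0.12 to 0.059 in the 4 comparisons of groups.

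Sqstm1 encodes p62, the receptor that ties ubiquitin-marked cargo to ATG8 and is itself degraded by autophagy. It had 318, 279 and 312 CPM in NX JV101, 234, 327 and 236 in NX saline, 248, 259 and 340 in sham JV101, and 262, 233 and 265 in sham saline. In NX saline and in sham JV101, 1 library each lay above all NX JV101 libraries. Its log2 fold change, the highest of the 10 genes in NX JV101 against NX saline, was 0.19 (95% interval −0.19 to 0.57, edgeR adjusted p = 1.00), and it was 0.16 in sham JV101 against sham saline (−0.23 to 0.54), with overlapping groups in both.

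Lamp1 and Lamp2 are the main glycoproteins of the lysosomal membrane, and Lamp2 is the gene mutated in Danon disease, a heart muscle disease. Lamp1 ranged from 272 to 333 CPM and Lamp2 from 118 to 138 CPM over the 12 libraries, and neither separated any pair of groups. Lamp2 averaged 134 ± 5.99 CPM in NX JV101, 126 ± 2.09 in NX saline, 123 ± 5.58 in sham JV101 and 123 ± 6.88 in sham saline. Ctsd encodes cathepsin D, an aspartic protease of the lysosome, and had 788, 748 and 712 CPM in NX JV101, 910, 778 and 622 in NX saline, 618, 785 and 1121 in sham JV101, and 818, 576 and 849 in sham saline. Its log2 fold change was −0.040 in NX JV101 against NX saline (95% interval −0.56 to 0.48) and 0.17 after sham surgery, in sham JV101 against sham saline (−0.35 to 0.69). The interaction of nephrectomy and JV101 lay between −0.21 (Ctsd) and 0.19 (Tfeb) over the 9 members other than Zkscan3, and none passed (edgeR adjusted p = 1.00).

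**Figure D2:**
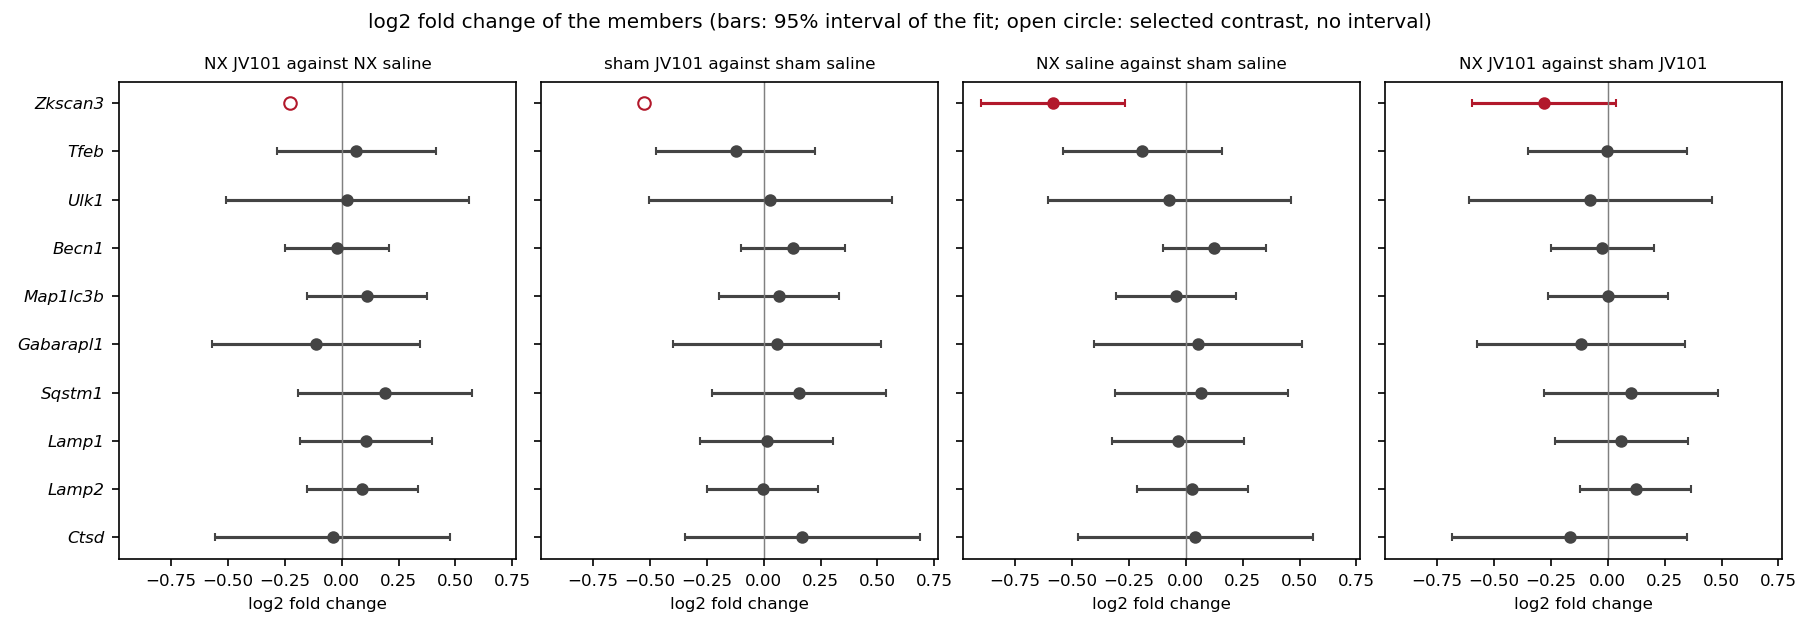
Log2 fold change (x axis) of each of the 10 genes (y axis) in 4 panels (JV101 against saline after NX and after sham surgery, then NX against sham surgery with saline and with JV101); bars are 95% intervals of the edgeR fit, and open circles are the contrasts that chose Zkscan3, drawn without one. Zkscan3 in NX saline against sham saline, −0.58, has the only interval drawn that lies clear of 0, and it did not pass after adjustment. This contrast uses the sham saline libraries that helped choose Zkscan3, which favours a value away from 0. It also uses the NX saline libraries, whose part in that choice favours a value nearer to 0.

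Over the 9 members other than Zkscan3, 7 had a positive log2 fold change for JV101 averaged over both surgeries, with a median of 0.054 beside 0.018 for all genes tested. The highest were Sqstm1 at 0.17 (SE 0.12) and Map1lc3b at 0.089 (SE 0.085), and the 2 negative ones were Tfeb at −0.029 and Gabarapl1 at −0.027. For nephrectomy averaged over both injections, 4 of the 9 were positive, with a median of −0.020. The 95% interval of each of these 9 values includes 0 in both averaged comparisons.

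Per length, the 10 genes spanned a wide range of levels. Mean deposited FPKM over the 12 libraries was 419 for Ctsd, 135 for Lamp1, 56.0 for Map1lc3b, 50.3 for Sqstm1, 44.7 for Gabarapl1, 19.2 for Lamp2, 14.4 for Becn1, 10.4 for Ulk1, 6.75 for Zkscan3 and 2.40 for Tfeb. Ctsd was above Lamp1, Lamp1 above Map1lc3b, Gabarapl1 above Lamp2, Lamp2 above Becn1 and Zkscan3 above Tfeb in 12 of 12 libraries. Becn1 was above Ulk1, and Ulk1 above Zkscan3, in 11 of 12. The 3 genes in between did not separate as cleanly, with Map1lc3b above Sqstm1 in 10 libraries and Sqstm1 above Gabarapl1 in 9. The transcripts of the 2 regulators were thus the scarcest of the set.

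**Figure D3:**
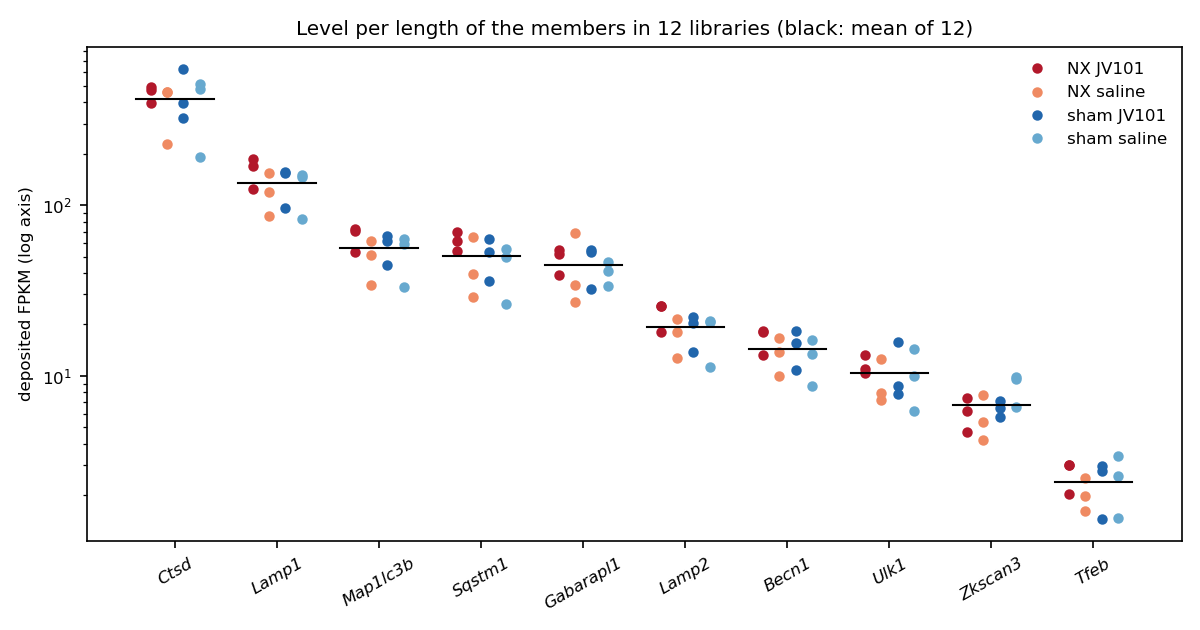
Deposited FPKM (y axis, log scale) of the 10 genes (x axis, ordered by mean) in each of the 12 libraries, coloured by group, with the mean of 12 as a black line. Ctsd stands highest with a mean of 419 and Tfeb lowest with a mean of 2.40, and Map1lc3b, Sqstm1 and Gabarapl1 share one range.

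The wider pathway was read from 13 lists with 186 tested genes, from the ULK1 complex to lysosomal hydrolases. Of these 186, 109 were positive in NX JV101 against NX saline (median log2 fold change 0.026, all genes 0.0098), 117 in sham JV101 against sham saline (0.031, all genes 0.027), 92 in NX saline against sham saline (−0.0026, all genes 0.018) and 86 in NX JV101 against sham JV101 (−0.011, all genes 0.0033). For JV101 averaged, 118 of 186 were positive (63.4%), beside 55.0% of all genes tested. None passed in any comparison. At an unadjusted p under 0.05 there was 1 gene of 186 in NX JV101 against NX saline, 2 in sham JV101 against sham saline (with Zkscan3, chosen on that contrast, among them), 2 in NX saline against sham saline (again with Zkscan3) and 3 in NX JV101 against sham JV101. These shares of 186 lie below the background given for all genes.

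The lists of lysosomal enzymes and of the proton pump held mostly positive JV101 values, by small amounts and with no gene past the threshold. For JV101 averaged, 26 of 34 lysosomal hydrolases and cofactors were positive (median 0.073), 10 of 11 cathepsins (0.080) and 16 of 17 subunits of the vacuolar ATPase, the proton pump that acidifies the lysosome (0.064). In contrast 14 of 32 genes of the MiT/TFE factors and their control were positive (−0.021), as were 3 of 10 cargo receptors (−0.033) and 5 of 10 mitophagy genes (0.0093). Without the 3 libraries of highest mitochondrial share, a fit added after the data were seen, 7 of 17 vacuolar ATPase subunits were positive, with a median of −0.024. Whether that share or another trait of those libraries goes with this change was not tested. The cathepsin count was 6 of 11 without NX JV101 replicate 2, and also without sham JV101 replicate 1. Hydrolases stood at 20 to 28 of 34 when each library was left out in turn, lowest without NX JV101 replicate 2. These 2 libraries had the highest sums of macrophage markers, 843 CPM in NX JV101 replicate 2 and 775 CPM in sham JV101 replicate 1, with at most 574 CPM in the other 10. They also had the highest sums of fibroblast markers, 2914 and 2734 CPM, with at most 1711 CPM in the other 10, and the part of these cells in the cathepsin and hydrolase values was not tested. The MiT/TFE list stood at 20 of 32 and the cargo receptors at 6 of 10 without sham JV101 replicate 1, and the cargo receptors also stood at 6 of 10 without NX JV101 replicate 2 and at 5 of 10 without sham saline replicate 1. With size factors in place of TMM, 22 of 34 hydrolases, 10 of 11 cathepsins and 14 of 17 vacuolar ATPase subunits were positive, and the median of all genes was −0.0038.

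For nephrectomy averaged over both injections, 2 of 11 enzymes that attach ATG8 proteins to lipid were positive (median −0.10), 9 of 32 genes of the MiT/TFE factors and their control (−0.047), and 2 of 10 cargo receptors (−0.075). Beclin 1 complex genes stood at 6 of 10 positive (0.068) and lysosomal membrane proteins at 9 of 16 (0.015). Over all 186 genes, 81 were positive (43.5%, median −0.011), beside 51.6% of all genes tested. Without the 3 libraries of highest mitochondrial share the conjugation enzymes stood at 4 of 11, the MiT/TFE list at 14 of 32 and the cargo receptors at 4 of 10.

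**Figure D4:**
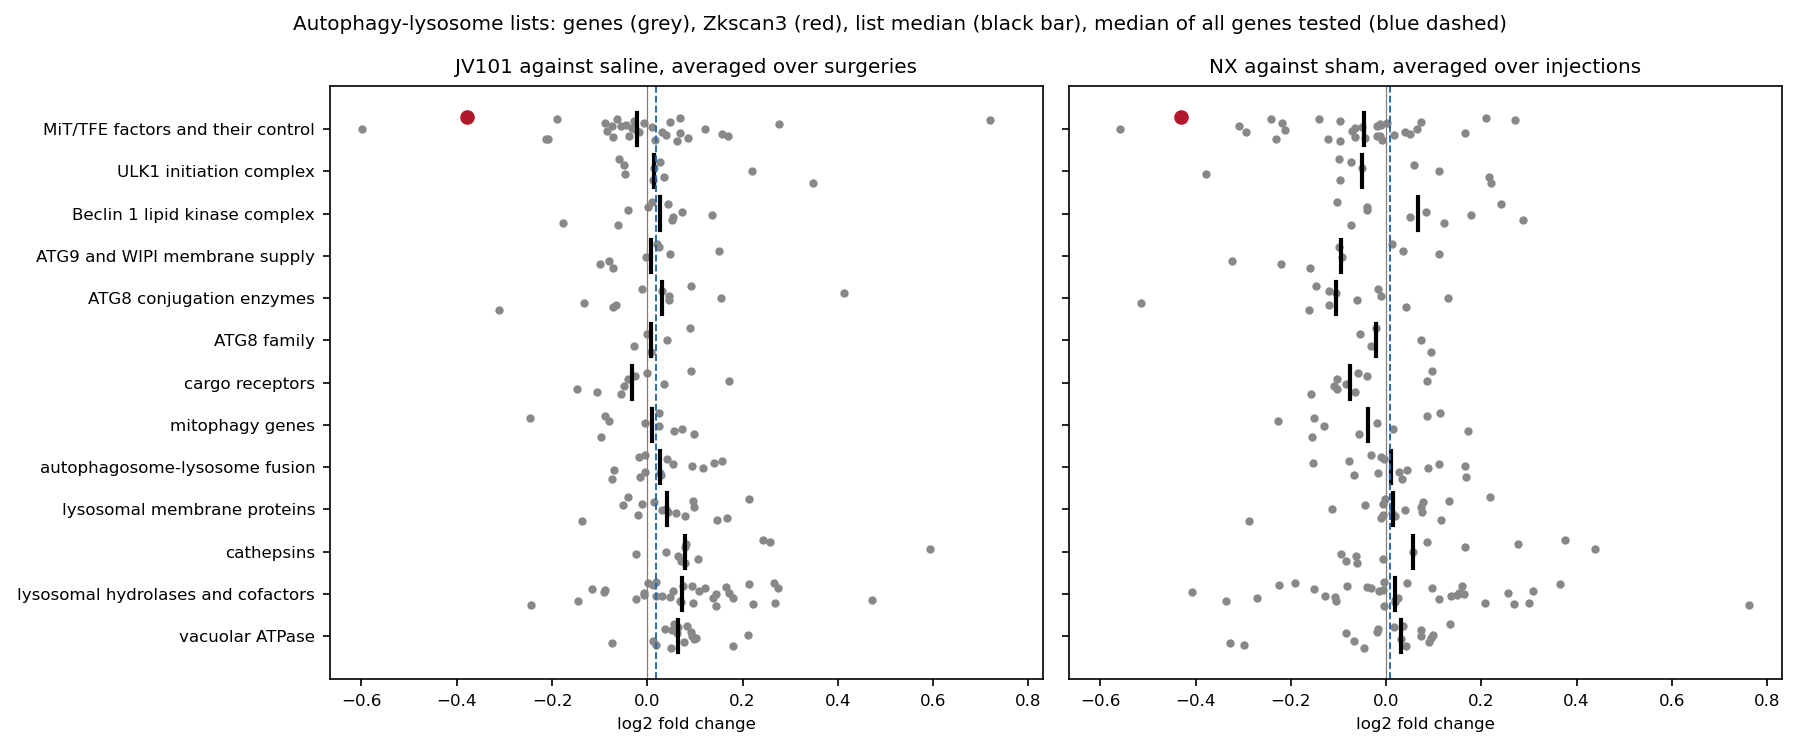
Log2 fold change (x axis) of every tested gene of 13 autophagy-lysosome lists (y axis) for JV101 averaged over both surgeries and nephrectomy averaged over both injections; black bars are list medians, the dashed line is the median of all genes tested, and Zkscan3 is red. List medians lie between −0.10 and 0.080, close to the dashed lines at 0.018 and 0.0086, and Zkscan3 lies left of most genes in both panels.

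The CACGTG core shown for Lamp1 and Ctsd was more frequent in promoters of the lists than elsewhere. Of 153 list genes with a promoter entry, 37 (24.2%) held CACGTG, beside 11.3% of 11408 tested genes with an entry, and 14 (9.15%) held TCACGTGA, beside 1.98%. The 14 are Sumf1, Atp6v1a, Gla, Clcn7, Vps33a, Nrbf2, Atp6v0e, Atp6v0d1, Cln3, Ctsa, Ctsd, Vps16, Atg3 and Mcoln1, most of them genes of lysosomal enzymes, the proton pump or the lysosomal membrane. They were grouped after their values were seen, so what follows is a description with no test.

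All 14 had a positive log2 fold change for JV101 averaged over both surgeries, from 0.031 (Mcoln1, a calcium channel of the lysosome) to 0.27 (Sumf1), with a median of 0.10. Of the 139 list genes without TCACGTGA, 80 were positive (median 0.019). Of 212 tested genes outside the lists whose promoter held TCACGTGA, 108 were positive (50.9%, median 0.0015). Of all tested genes with an entry, 55.4% were positive. The part of these letters in the values was not tested. By surgery, 11 of the 14 were positive in NX JV101 against NX saline, as were 13 of the 14 in sham JV101 against sham saline. In NX saline against sham saline 10 of the 14 were positive, and 7 of the 14 in NX JV101 against sham JV101. Over the alternatives that kept all 14 genes, 11 to 14 were positive, with 11 without sham JV101 replicate 3 and also without the 3 libraries of highest mitochondrial share.

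Few genes of the lists stood out singly. Sumf1, which activates lysosomal sulfatases, had 13.0, 12.4 and 12.04 CPM in NX JV101 and 8.62, 9.95 and 8.77 CPM in NX saline (log2 fold change 0.45, SE 0.12, edgeR adjusted p = 1.00). Its groups did not overlap, as for 4.52% of all genes in the higher direction. Sumf1 was named for its small p, which favours groups that do not overlap. Galns, a sulfatase of keratan sulfate breakdown, averaged 4.32 ± 1.02 CPM in sham JV101 and 2.50 ± 0.551 CPM in sham saline (0.78, SE 0.28, edgeR adjusted p = 1.00). In the other surgery Sumf1 stood at 0.082 and Galns at 0.17, and the interaction of nephrectomy and JV101 did not pass for Sumf1 (0.37, SE 0.18) or Galns (−0.62, SE 0.39, edgeR adjusted p = 1.00 for both).

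Idua, which degrades dermatan and heparan sulfate, had 11.99, 12.14 and 11.87 CPM in NX JV101 and 15.1, 16.3 and 20.4 CPM in sham JV101 (log2 fold change −0.52, SE 0.18, edgeR adjusted p = 0.999). Its groups did not overlap, as for 2.42% of all genes in the lower direction, and it was also named for its small p. Atg16l2, a relative of the ATG8 conjugation scaffold, averaged 4.08 ± 0.828 CPM in NX JV101 and 5.92 ± 0.0353 CPM in sham JV101 (−0.54, SE 0.22), and 4.53 ± 1.18 CPM in NX saline against 6.41 ± 0.613 CPM in sham saline (−0.49, SE 0.22). Atp6v0a2, a subunit of the proton pump, averaged 37.1 ± 1.84 CPM in NX JV101 and 51.4 ± 15.2 CPM in sham JV101 (−0.47, SE 0.21), with overlap.

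Genes of the FoxO stress program, a separate branch that also acts on autophagy, formed a further list of 12. For JV101 averaged, their log2 fold changes ran from −0.52 to 0.41, beside −0.60 to 0.72 for the 186 genes. In sham JV101 against sham saline they ran from −1.68 to 0.34, beside −0.61 to 1.13. Ddit4, an inhibitor of mTORC1, had 28.4, 25.3 and 27.5 CPM in sham JV101 and 79.4, 52.7 and 85.8 CPM in sham saline, without overlap (log2 fold change −1.43, SE 0.45, edgeR adjusted p = 1.00). Irs2, an insulin receptor substrate, had 13.2, 13.8 and 13.0 CPM in sham JV101 and 66.7, 24.5 and 36.7 CPM in sham saline, also without overlap (−1.68, SE 0.50, edgeR adjusted p = 1.00). Of all genes, 2.07% were separate in this direction, and Ddit4 and Irs2 were named for their small p. After nephrectomy both genes overlapped between the injections: Ddit4 had 19.2, 68.7 and 82.7 CPM in NX JV101 and 23.9, 55.6 and 51.0 CPM in NX saline. Foxo4 itself averaged 29.9 ± 2.01 CPM in NX saline and 37.7 ± 3.52 CPM in sham saline (−0.34, SE 0.12, edgeR adjusted p = 0.994).

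Across all 12 libraries the genes whose log2 CPM ran most like Zkscan3, of 12057 ranked, were Slc20a1 (r = 0.95), Trmt1l (0.93), Gprasp1 (0.93), Hsp90ab1 (0.91) and Baiap2l1 (0.91). The most opposed were Svbp (−0.89), Mknk1 (−0.87) and Pcdhb14 (−0.87). These figures describe 12 libraries of which 3 stand apart, and they share depth and scaling. Slc20a1, a sodium-phosphate cotransporter, had 14.4, 16.4 and 16.0 CPM in NX JV101, 16.3, 17.8 and 19.1 in NX saline, 15.5, 19.8 and 16.6 in sham JV101, and 20.7, 25.8 and 23.6 in sham saline. Its 3 sham saline libraries were also above the rest. A ranking by likeness to Zkscan3 over these libraries favours such a pattern, so nothing is read from it. Hsp90ab1, a cytosolic chaperone, had 743, 869 and 812 CPM in NX JV101, 728, 864 and 913 in NX saline, 746, 965 and 872 in sham JV101, and 1021, 1296 and 1177 in sham saline. The genes most like Tfeb were Extl3 (0.92), Prkcz (0.90) and Pacs2 (0.89).

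**Figure D5:**
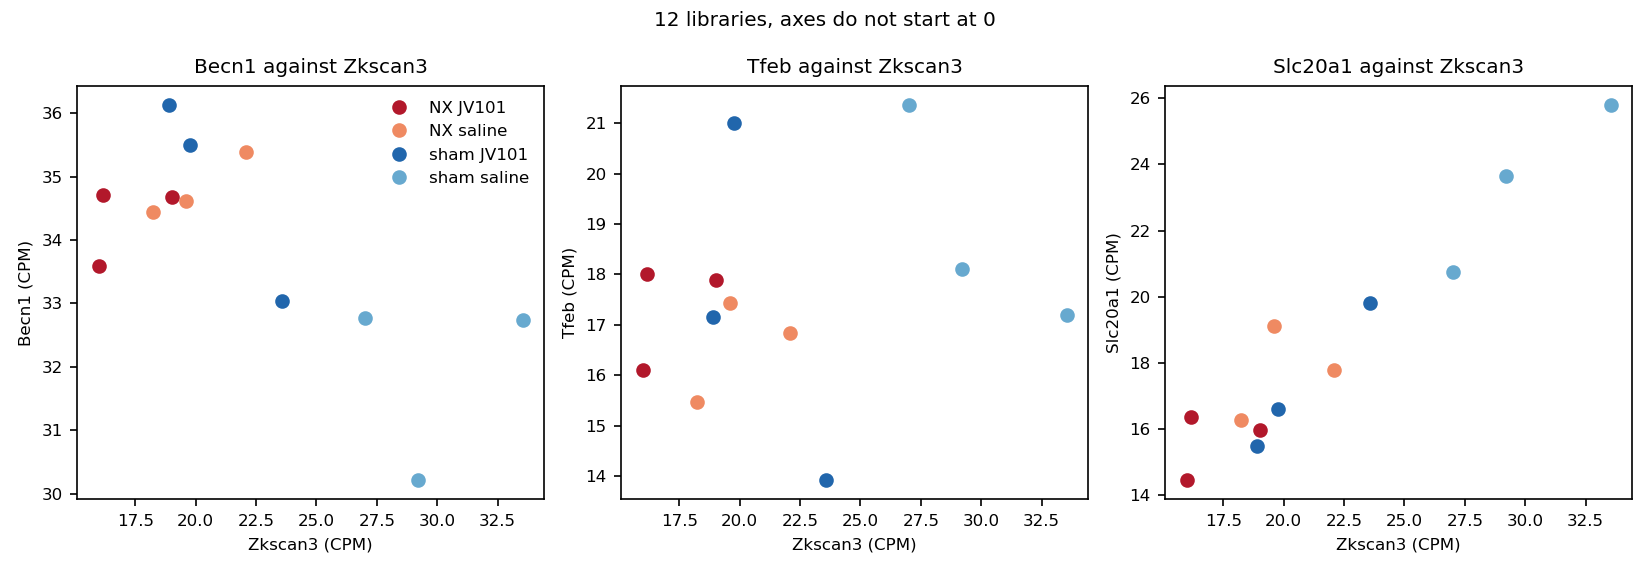
CPM of Becn1, Tfeb and Slc20a1 (y axes) against CPM of Zkscan3 (x axes) in the 12 libraries, coloured by group; axes do not start at 0. The sham saline libraries form a cluster at 27.0 CPM of Zkscan3 and above, with the 3 lowest Becn1 values, the 3 highest Slc20a1 values, and Tfeb values (17.2 to 21.4 CPM) spread through those of the other groups (13.9 to 21.0 CPM).

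Because the sham saline libraries form that cluster, no correlation over all 12 is given between Zkscan3 and the other members. In the 9 other libraries, Pearson's r of log2 CPM with Zkscan3 was −0.043 for Becn1 (Spearman's rho 0.067), −0.27 for Tfeb (−0.083), 0.43 for Gabarapl1 (0.53) and −0.56 for Lamp2 (−0.30). None of the 9 relations passed (permutation test, 2-sided, smallest p = 0.116, adjusted p = 0.937 for all by Pearson's r and 0.948 by Spearman's rho). Without the 2 libraries farthest from the median of Zkscan3, r was 0.36 for Becn1, 0.039 for Tfeb, 0.70 for Gabarapl1 and −0.47 for Lamp2. In the 6 JV101 libraries alone none passed either (exact permutation test, smallest p = 0.165, adjusted p = 0.926). On log2 FPKM, an alternative added after the data were seen, 7 of the 9 relations passed in the same 9 libraries, where 0 passed on CPM. FPKM carry the mitochondrial share of each library, and its part in those 7 was not tested. The share of all genes that pass on that scale was not computed, so the 7 are not read as a relation of Zkscan3 to the members.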

How the data were processed

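RNA-seq of isolated cardiomyocytes was deposited as a table of raw counts per gene and a table of FPKM, both made by the authors, with 1 column per library. Per the submitters' processing notes the tools were fastp, HISAT2 and HTSeq on genome build GRCm39. Tool versions, the gene annotation and whether strand was used were not stated. Dividing the deposited counts by the deposited FPKM gives 1 length per gene in every library, so FPKM were scaled by total counts, mitochondrial ones included.

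The counts were filtered with filterByExpr (minimum count 10), scaled by TMM and fitted with edgeR 4.0.16 (R 4.3.3) in 1 quasi-likelihood model over 4 groups and 12 libraries, with Benjamini-Hochberg adjustment over 14412 genes. Each SE is |log2 fold change| over the root of the F statistic. FPKM were tested as log2 with a pseudocount of 1 or 0.1 in limma 3.58.1, and DESeq2 1.42.0 was an alternative. The edgeR fit was tested on simulated data. Groups follow the labels. Permutation tests of single correlations used all orders for 6 libraries and 100000 draws for 9.

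The members and gene lists were chosen with earlier results of these data known. Named genes were the 10 members, up to 2 genes of smallest p per list and comparison, the 5 most and 3 least like Zkscan3, the 3 most like Tfeb, and the relatives Zkscan4 and Tfe3. Not every gene that this rule allows is printed. Replicate numbers did not pair libraries: correlations of same-numbered deviations ran from −0.50 to 0.23. RefSeq's tables held 22096 of the 22794 symbols.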

Additional observations from a re-analysis of the deposited data

How the results depend on the processing

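Across 23 alternatives, 1340 recomputed values of the members were compared with those reported. Of these, 1263 stayed within the replicate SD, 77 did not, and 0 members passed the adjusted threshold. DESeq2 called 8 genes in NX JV101 against NX saline, 1 in NX saline against sham saline, 7 for JV101 averaged and 1 for nephrectomy averaged, where edgeR called 0. The cause was not tested.

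On log2 FPKM, Zkscan3 in NX JV101 against NX saline was 0.088 with a pseudocount of 1 and 0.10 with 0.1, beside medians of all genes of 0.21 and 0.32. In NX JV101 against sham JV101 it was −0.076 and −0.0893, beside medians of 0.11 and 0.18. Zkscan3 lay below those medians in each case. NX JV101 against NX saline is a contrast that chose Zkscan3, so nothing is read from its place there. On that scale 7 of 9 correlations with Zkscan3 passed over the 9 libraries without sham saline, where 0 passed on CPM. FPKM carry the mitochondrial share of each library, and its part was not tested. The share of all genes that pass on that scale was not computed, so nothing is read from the 7.

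With each library left out in turn, Zkscan3 lay between −0.31 and −0.15 in NX JV101 against NX saline, −0.63 and −0.43 for sham JV101 over sham saline, −0.66 and −0.48 in NX saline against sham saline, and −0.37 and −0.18 in NX JV101 against sham JV101. With the replicate block it was −0.22, −0.53, −0.58 and −0.28 in these comparisons, and 0 genes passed. The block shares a number only and changed no call.

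Precision is limited by 3 libraries a group and, for Zkscan3, by 362 to 1055 counts per library. Counting error and the spread between libraries were not separated. Leaving out libraries by mitochondrial share, the share as a covariate and the alternatives for the correlations were added after seeing the data.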
